A study of Mus musculus with 477 samples.

Results

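The genes *Cd74*, *H2-Aa*, *H2-Ab1*, *H2-Eb1*, *H2-DMa*, *H2-DMb1* and *Ciita* of the MHC class II pathway were followed through single mammary cells of *Brca1*- and *Trp53*-mutant mice. They are 7 of the 21004 genes in the count table, and they were chosen by their CPM (reads of a gene per 1000000 reads of the sample) across the 10 groups of cells, with and without immune reads, so those levels are given here as a description and without a test. MHC class II molecules present peptides from engulfed proteins to CD4+ T cells. Dendritic cells, macrophages and B cells carry them at all times, whereas epithelial cells, those of the mammary gland among them, are known to show them mainly after exposure to interferon gamma. In every one of these cell types the coactivator CIITA, bound to factors that sit on the X and Y boxes of the promoters, is known to switch the genes on together.

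The data were 477 single cells from 11 female mice on a mixed C57BL/6 and 129/Sv background, captured on Fluidigm C1 chips, where each cell is lysed and its mRNA copied full length in a chamber of its own. The 312 luminal cells came from 7 mice: virgin mice with *Brca1* deleted (vBrL), with *Brca1* deleted and 1 *Trp53* allele floxed (vBr53L) or with 1 floxed *Trp53* allele alone (v53L), and their counterparts pregnant at day 12.5 (pBrL, pBr53L and p53L). The 165 tumor cells came from 2 *Brca1* tumors (BrT1 and BrT2) and 2 *Brca1*/*Trp53* tumors (Br53T1 and Br53T2). The methods give the alleles as *Brca1* fl/fl and *Trp53* fl/+, with the ROSA mT/mG reporter of Cre activity. A flow cytometry panel of the study lists glands with *Trp53* fl/fl, and the sample labels do not give the allele. All mice carried Cre under the MMTV promoter, which is active in mammary epithelium but not in every cell of it, and no group was wild type. Only pBrL had 2 mice, here pBrL-1 and pBrL-2, so every other group is a single mouse and cells of it are not replicates. Luminal donors were 3 to 4 months old. White blood cells and endothelial cells had been depleted before the sort. Living cells were taken, for the luminal groups those with high CD24, low CD29 and the green signal of the reporter, which marks cells where Cre had been active, and for the tumors those with CD24. The reads per cell ran from 170209 to 3550564. *Brca1* itself was read at 1.70 to 57.2 CPM over all cells of a mouse, a count over the whole gene that does not measure the deleted part.

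Because white blood cells are the textbook source of class II mRNA, cells were separated by whether they held a read of *Ptprc* (CD45), *Tyrobp* or *Lyz2*, genes of white blood cells and of myeloid cells. Such a read was found in 31 of the 477 cells (6.499%, exact 95% interval 4.46 to 9.10%), and 446 cells had none. In 15 of the 31 it was a single read, and those 15 cells, just past the threshold, had a class II sum of 0 to 408 CPM with a median of 63.2. Only 2 of the 31 cells carried 1000 reads or more, 1 in pBr53L and 1 in vBrL. Unless stated otherwise, values below are from the 446 cells without such a read, with the reads of a mouse's cells summed.

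Promoter windows of *H2-Aa* and *H2-Eb1* are shown because each held matches to cores of the X and Y boxes, though neither held all 3 cores searched. The 150 bases ahead of the transcription start are printed 5′ to 3′ on the gene's strand, from RefSeq on GRCm38.p6, with matches in capitals to CCAAT (core of the Y box, ATTGG when read on the other strand), AGCAAC (core of X1) and TGACG (core of X2). The H2-Aa window is chr17:34287824-34287973 on the minus strand and the H2-Eb1 window chr17:34305717-34305866 on the plus strand.
H2-Aa: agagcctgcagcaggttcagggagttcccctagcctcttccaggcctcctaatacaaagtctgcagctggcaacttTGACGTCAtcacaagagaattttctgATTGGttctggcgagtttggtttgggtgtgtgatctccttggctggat
H2-Eb1: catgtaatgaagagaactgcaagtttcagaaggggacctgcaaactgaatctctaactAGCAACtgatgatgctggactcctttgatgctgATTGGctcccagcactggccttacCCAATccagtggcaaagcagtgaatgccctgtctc

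Counted back from the start, *H2-Aa* held ATTGG at -48 to -44, and TGACG at -74 to -70 overlapping its reverse at -71 to -67. *H2-Eb1* held AGCAAC at -92 to -87, ATTGG at -59 to -55 and a forward CCAAT at -35 to -31. The *H2-DMb1* window held ATTGG at -61 to -57 and none of the others, and neither of the 2 *H2-DMa* windows held any. Of 32851 promoter windows of the same length in the table, 24.5% held CCAAT on either strand, 7.75% AGCAAC and 13.3% TGACG, and 1.96% held both CCAAT and AGCAAC. Neither the interferon-stimulated element GAAANNGAA (3.95% of all windows) nor the gamma-activated site TTCNNNGAA (4.09%) was matched in these 5 windows. Windows of 4 of the 7 genes were searched. *H2-Ab1* and *Ciita* were not matched in the table, and *Cd74* was left out by rule and not searched. *H2-Aa* spans 34282744 to 34287823 on chromosome 17, *H2-Ab1* 34257689 to 34269419, *H2-Eb1* 34305867 to 34316674, *H2-DMa* 34119541 to 34139101 and *H2-DMb1* 34153072 to 34160230 (GRCm38, GENCODE vM21), so that these 5 share the class II region. *Ciita* lies on chromosome 16, from 10480059 to 10528418.

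Class II mRNA was high in the luminal cells of 1 mouse, the pregnant double mutant pBr53L. The 7 genes summed to 1011 CPM in its 47 cells without an immune read. The other 6 luminal mice had 29.4 CPM (vBrL), 42.3 (vBr53L), 97.4 (v53L), 58.1 (pBrL-1), 34.2 (pBrL-2) and 47.1 (p53L), a mean of 51.4 ± 24.7 (SD, n = 6). The tumors had 27.2 CPM (BrT1), 14.7 (BrT2), 88.8 (Br53T1) and 70.2 (Br53T2). pBr53L thus stood 10.4-fold above the next mouse, v53L, and the remaining 10 mice overlapped, luminal and tumor alike. The 2 pBrL mice, the sole pair within a group, lay inside that overlap.

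**Figure D1:**
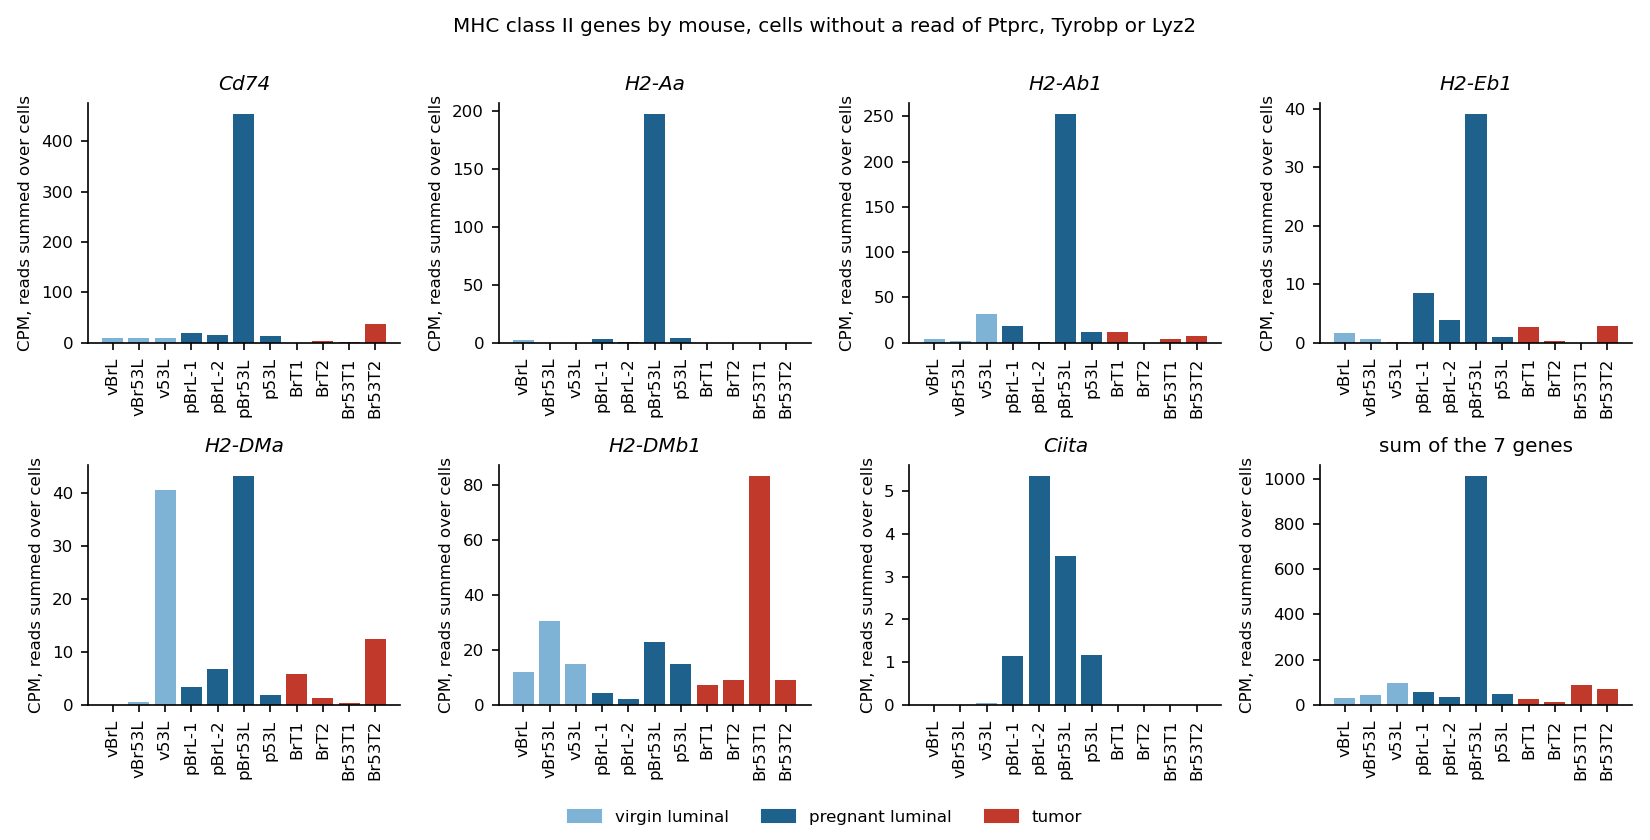
Each panel plots the level of 1 gene, or the sum of the 7, in CPM (linear axis from 0, reads summed over the cells without a read of *Ptprc*, *Tyrobp* or *Lyz2*) for the 11 mice, 1 bar per mouse with no error bar because each bar is 1 mouse. pBr53L is the highest bar for *Cd74* (454 CPM), *H2-Aa*, *H2-Ab1*, *H2-Eb1* and, by a small margin, *H2-DMa*, while Br53T1 leads for *H2-DMb1* and pBrL-2 for *Ciita*.

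The invariant chain *Cd74*, which occupies the groove of new class II molecules and guides them to endosomes, was the most abundant member in pBr53L. It reached 454 CPM in pBr53L. The other luminal mice had 8.98 (vBrL), 8.76 (vBr53L), 9.62 (v53L), 18.8 (pBrL-1), 14.4 (pBrL-2) and 12.9 CPM (p53L), a mean of 12.2 ± 3.96 (SD, n = 6), and no value came within 24.1-fold of pBr53L. Among tumors *Cd74* was not read in any BrT1 cell, stood at 3.802 CPM in BrT2 and 1.01 in Br53T1, and was highest in Br53T2 at 38.1 CPM. One Br53T2 cell with 720 CPM carried part of that level, which was 25.9 CPM without it.

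The classical chains were also highest in pBr53L, while the order of the other mice differed from gene to gene. *H2-Aa*, the alpha chain of the I-A molecule, was at 197 CPM in pBr53L, between 0 (v53L) and 4.08 CPM (p53L) in the other luminal mice, and at 0, 0, 0 and 0.178 CPM in BrT1, BrT2, Br53T1 and Br53T2. Its partner *H2-Ab1* was at 252 CPM in pBr53L. In the other luminal mice it was at 4.00 (vBrL), 1.86 (vBr53L), 32.2 (v53L), 18.3 (pBrL-1), 1.22 (pBrL-2) and 11.4 CPM (p53L), and in the tumors at 0.252 to 11.6 CPM. *H2-Eb1*, the beta chain of I-E, was at 39.1 CPM in pBr53L against 0.0774 to 8.49 CPM in the other luminal mice and 0 to 2.83 CPM in tumors. For *H2-Eb1* a single pBr53L cell with 1296 CPM mattered: without it the mouse had 11.7 CPM, still above the 8.49 CPM of pBrL-1. C57BL/6 and 129 mice are known to lack a working I-E alpha chain, and its pseudogene *H2-Ea-ps* was read in no mouse other than pBr53L, at 0.0992 CPM.

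The peptide editor H2-DM did not share this pattern in full. *H2-DMa* was at 43.05 CPM in pBr53L, 40.5 CPM in v53L and at 0 to 6.83 CPM in the other 5 luminal mice and 0.303 to 12.4 CPM in tumors. One cell accounted for most of the v53L level, which was 14.4 CPM without the cell highest in *H2-DMa*, and pBr53L had 30.8 CPM without its own highest *H2-DMa* cell. *H2-DMb1* was at 22.9 CPM in pBr53L, inside the 2.12 (pBrL-2) to 30.6 CPM (vBr53L) of the other luminal mice. Without the cell highest in *H2-DMb1* in each mouse, pBr53L had 19.3 CPM, above the 0.855 (pBrL-2) to 13.5 CPM (vBr53L) of the other luminal mice. The highest *H2-DMb1* level was in the tumor Br53T1, at 83.1 CPM against 7.13 to 9.12 CPM in the other 3 tumors. Reads of *H2-DMb1* and its near copy *H2-DMb2* may have been split in the counting, and *H2-DMb2* itself was at 8.24 CPM in pBr53L and 0.989 in Br53T1.

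*Ciita*, the coactivator, was near the limit of detection everywhere. It was read at 0 CPM in vBrL and vBr53L, 0.0516 in v53L, 1.14 in pBrL-1, 5.35 in pBrL-2, 3.50 in pBr53L and 1.16 in p53L, and in no cell of any tumor. In pBrL-2 the level was set by 1 cell with 360 reads, whose class II sum of 173 CPM was *Ciita* alone. *Ciita* was read in 6 pBr53L cells without an immune read, with 1 to 236 reads each. The cell with 236 reads had 6058 CPM of class II, the second highest of the 47, but the cell with 1 read had 43.2 CPM. Scaled to exon length for comparison between genes, the pBr53L levels were 270 CPM per kb for *Cd74*, 98.2 for *H2-Ab1*, 51.9 for *H2-Aa*, 20.1 for *H2-Eb1*, 13.6 for *H2-DMb1*, 12.5 for *H2-DMa* and 0.367 for *Ciita*.

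Class II reads were detected in most cells of pBr53L. After each cell was thinned to 100000 reads, *Cd74* was read in 39 of 47 pBr53L cells (82.98%, exact interval 69.2 to 92.4%), against 7.89 to 21.2% in the other luminal mice and 0 to 17.0% in tumors. The 0 is that of BrT1, where 0 of 46 cells allows a share of up to 6.52%. *H2-Ab1* was read in 28 of the 47 cells (59.6%) and at most 17.9% of cells elsewhere, and *H2-Aa* in 24 (51.1%) and at most 3.03% elsewhere. *H2-Eb1* was read in 13 cells (27.7%, elsewhere up to 5.97%), *H2-DMa* in 12 (25.5%, up to 9.09%), *H2-DMb1* in 15 (31.9%) and *Ciita* in 4 (8.51%, up to 3.03%). For *H2-DMb1* the share was higher in Br53T1, at 15 of 26 cells (57.7%). Intervals and limits cover the counting of cells only, not the spread between mice.

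Several members were read together in these cells. At the same thinned depth 28 of 47 pBr53L cells (59.6%) held 3 or more of the 7 genes, against 8 of the 399 cells of the other 10 mice (2.01%). *Cd74*, *H2-Aa* and *H2-Ab1* were all read in 21 pBr53L cells and in 1 other cell. A class II sum of 100 CPM or more was found in 31 of 47 pBr53L cells (65.96%, interval 50.7 to 79.1%) and in 64 of the 399 others (16.04%, interval 12.6 to 20.0%). By mouse that share ran from 4.35% in BrT1 to 38.5% in Br53T1 (10 of 26 cells, interval 20.2 to 59.4%), which overlaps the interval of pBr53L. Among the highest cells elsewhere were several with a single member. The highest, in v53L, had 953 CPM of *H2-DMa* and no other member, the next in a luminal mouse, in vBr53L, had 547 CPM of *H2-DMb1* alone, and a BrT1 cell had 480 CPM of *H2-Ab1* alone. vBr53L was captured on the same chip as pBr53L, had the same genotype and was virgin, and 4 of its 38 cells (10.5%) reached 100 CPM.

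**Figure D2:**
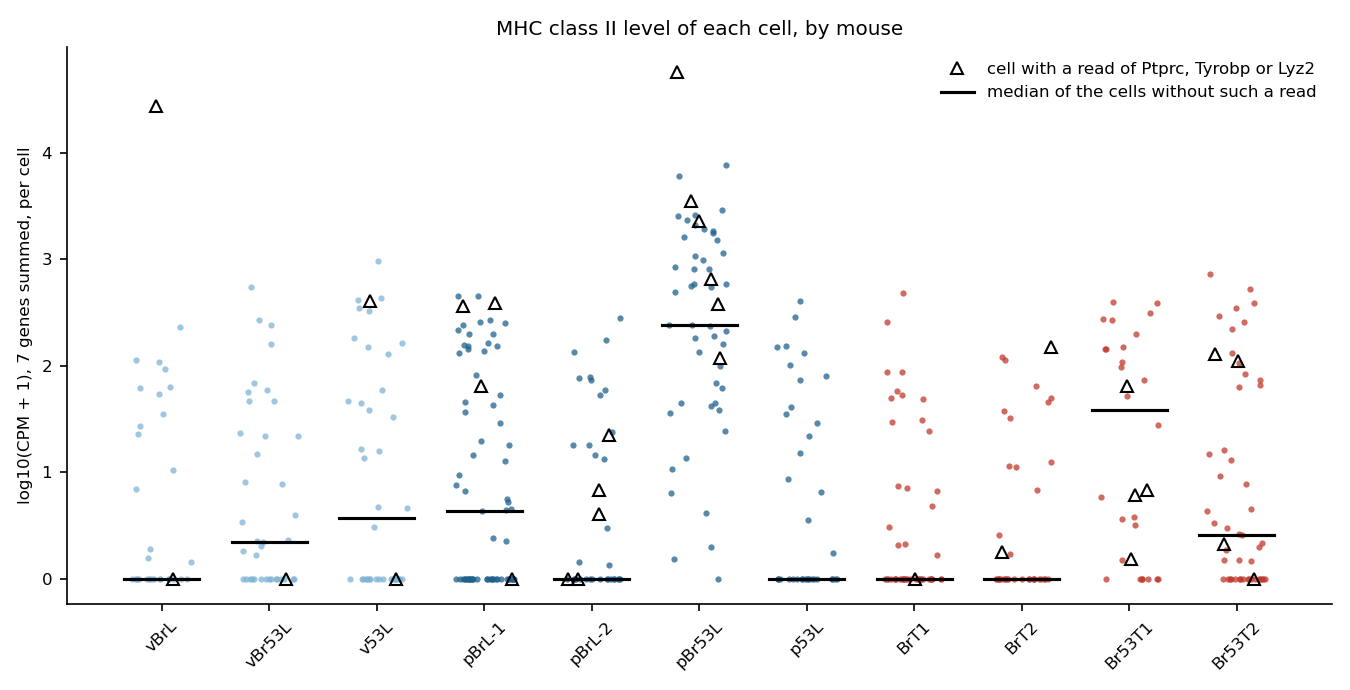
Each point is 1 of the 477 cells, placed by mouse (horizontal) and by the summed level of the 7 genes as log10(CPM + 1) (vertical, log scale); open triangles are the 31 cells with a read of *Ptprc*, *Tyrobp* or *Lyz2* and bars are medians of the cells without one. The pBr53L median of 241 CPM lies above every other median (the next is 38.8 CPM in Br53T1), and 2 triangles, in vBrL and pBr53L, lie above all other cells.

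Within pBr53L the level varied widely from cell to cell. The 47 sums ran from 0 to 7738 CPM with a median of 241 and quartiles of 43.6 and 1319, and 46 of the 47 cells held at least 1 class II read when not thinned. Across these cells the 3 most abundant members rose and fell together: Spearman's rho was 0.77 for *H2-Aa* with *H2-Ab1*, 0.77 for *Cd74* with *H2-Ab1* and 0.72 for *Cd74* with *H2-Aa*. *Cd74* had a rho of 0.59 with *H2-DMb1*, 0.58 with *H2-DMa* and 0.42 with *H2-Eb1*, and 0.18 with *Ciita*. These are descriptions over cells of 1 mouse and 1 chip, which share their library preparation. The class II sum had a rho of 0.23 with the reads per cell and 0.27 with the number of detected genes.

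The class II cells of pBr53L carried the markers of luminal cells. In the 47 cells the keratin genes *Krt8* and *Krt18* were at 1794 and 3388 CPM, the adhesion molecule *Epcam* at 1004 CPM and the milk protein gene *Csn3* at 18991 CPM, and *Epcam*, *Krt8*, *Krt18* and *Csn3* were each read in all 47 cells. The 9 luminal markers summed to 28189 CPM in pBr53L, within the 14796 to 30588 CPM of the other luminal mice. Over the cells the class II sum had a rho of 0.022 with the luminal sum. The 23 cells with the highest class II sums (486 to 7738 CPM) had a median luminal sum of 30494 CPM and the 23 lowest (0 to 238 CPM) one of 22003 CPM.

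Markers of white blood cells were close to absent in the same cells. *Ptprc*, *Tyrobp* and *Lyz2* are at 0 by the choice of cells. The 5 white blood cell markers summed to 0.254 CPM in pBr53L (0 to 9.09 in the other luminal mice), with *Laptm5* at 0. The 4 measured B cell markers summed to 0.0441 CPM, with *Cd79a* at 0, and the 2 measured T and NK cell markers to 0.0662 CPM. The 12 measured myeloid and dendritic markers summed to 24.997 CPM, against 8.29 to 68.3 CPM in the other luminal mice and 0.714 to 51.8 CPM in tumors. Of the 12, 7 had a read, led by the lysosomal protein gene *Cd68* at 12.5 CPM and the dendritic cell gene *Xcr1* at 5.67 CPM, while *Itgax*, *Itgam* and *Adgre1* were at 0, as were *Tyrobp* and *Lyz2* by the choice of cells. In vBr53L, with the highest sum of the luminal mice, *Cd68* made up 66.6 of the 68.3 CPM. *Xcr1* was at most 0.464 CPM in the other luminal mice and 1.17 CPM in tumors. A myeloid or dendritic marker was read in 15 of the 47 cells, and its part in the class II level was not tested. Over the 47 cells the class II sum had a rho of -0.13 with the white blood cell sum and 0.18 with the myeloid sum. These 2 sums were above 0 in 4 and 15 of the 47 cells, so most values were tied at 0 and the rho says little.

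**Figure D3:**
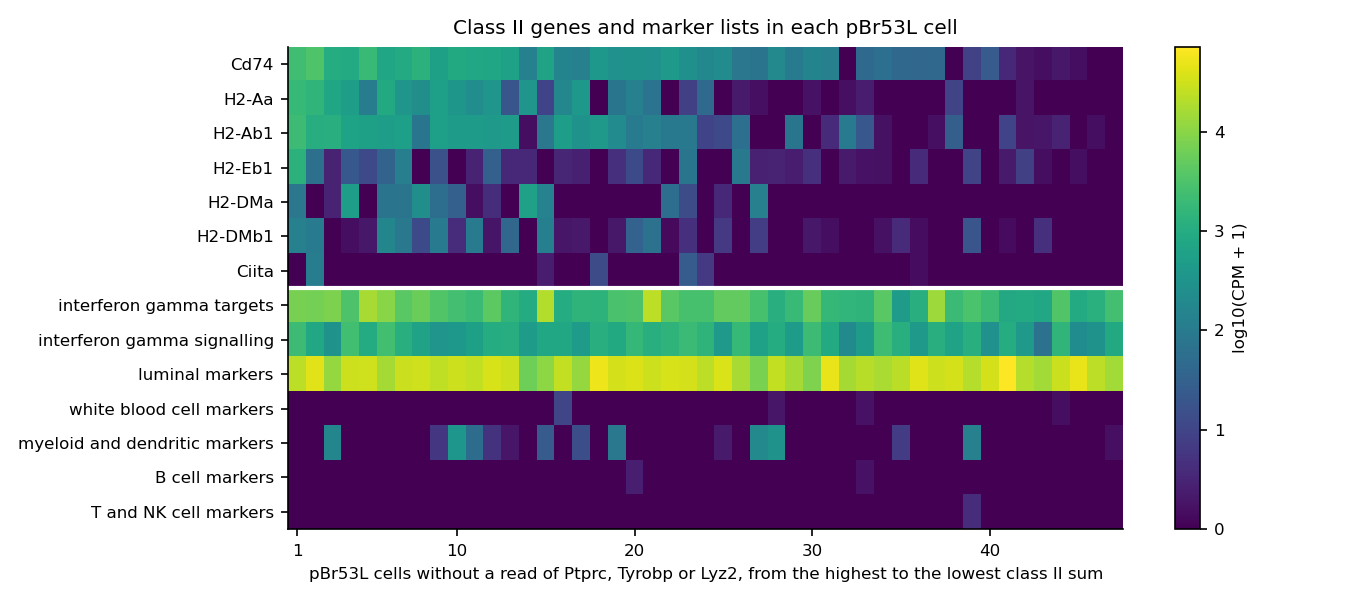
Columns are the 47 pBr53L cells without a read of *Ptprc*, *Tyrobp* or *Lyz2*, from the highest (left) to the lowest class II sum; rows are the 7 genes and, under the white line, summed marker and pathway lists, colored by log10(CPM + 1). Luminal markers are high in every column, the white blood cell row is above 0 in 4 of 47 columns, and *Cd74*, *H2-Aa* and *H2-Ab1* fade together from left to right.

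The cells with an immune read were looked at separately. Their class II sum was highest in vBrL, at 16590 CPM in 2 cells, followed by pBr53L at 7496 CPM, and it was 0 to 236 CPM in the other 8 mice that had such cells. In pBr53L they numbered 6 of 53. One held 2498 reads of *Ptprc*, 1634 of *Tyrobp* and 21077 of *Lyz2*, with 56862 CPM of class II and 1400 CPM of luminal markers. The other 5 held 1 to 381 reads of the 3 genes, and their class II sums were 116, 380, 653, 2259 and 3493 CPM, inside the range of the 47 cells without such reads. The make-up of the class II reads differed between these cells. In the highest immune cell *H2-Aa* reads were 159% of *Cd74* reads and *H2-Eb1* reads 39.5%, whereas in the 47 cells they were 43.4% and 8.62%. *Lyz2* reads were 131% of *Cd74* reads in that cell and 0.574% over the 52 other pBr53L cells, with or without an immune read. Without that cell the level of pBr53L over all cells was 1018 CPM in place of 1655.

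**Figure D4:**
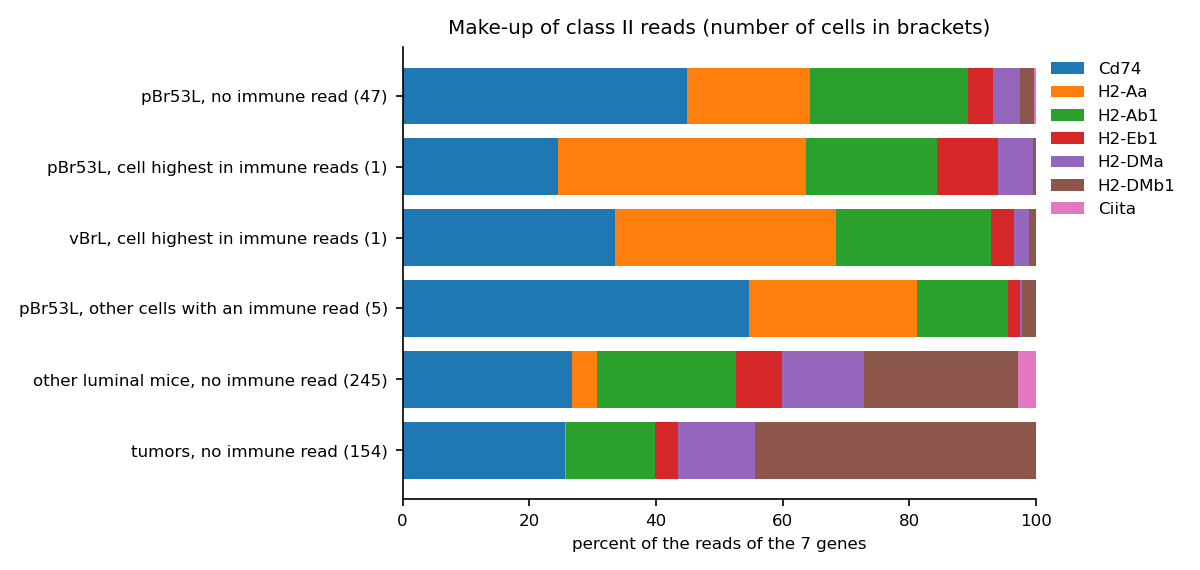
Stacked bars give the percent of the class II reads that fell on each of the 7 genes, in 6 sets of cells with their number in brackets. *H2-Aa* takes 39.1% in the pBr53L cell highest in immune reads, 34.9% in the like cell of vBrL and 19.5% in the pBr53L cells without an immune read, and *H2-DMb1* takes 44.3% in the pooled tumor cells, where 4116 of its 5950 reads came from Br53T1.

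In vBrL a single cell set the level. Over all 35 cells the class II sum of vBrL was 1077 CPM, the second highest of the 11 mice, and without 1 cell it was 28.6 CPM. That cell held 1288 reads of *Tyrobp* and 3302 of *Lyz2*, none of *Ptprc*, and 27462 CPM of class II, together with 21861 CPM of luminal markers, *Csn3* included. Its *H2-Aa* reads were 104% of its *Cd74* reads. Whether it was a luminal and a myeloid cell in 1 chamber was not tested. With all cells v53L came next, at 103 CPM, followed by Br53T1 at 82.4, Br53T2 at 69.2 and pBrL-1 at 66.2 CPM.

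The genes around class II were taken from 5 lists: other class II genes, invariant chain and antigen processing, X and Y box factors, interferon gamma signalling and interferon gamma targets. The lists hold 47 genes, of which 45 have a row in the table (*H2-Ea* and *Ifng* do not). Interferon gamma targets stood out in pBr53L in level. Their sum was 4399 CPM in pBr53L, against 1776 (vBrL), 570 (vBr53L), 530 (v53L), 1095 (pBrL-1), 2100 (pBrL-2) and 1731 CPM (p53L) in the other luminal mice and 155 (BrT2) to 1252 CPM (Br53T1) in tumors. pBr53L was the highest of the 11 mice for 14 of these 16 genes, compared with 5.00% of all 15251 genes that reached 1 CPM in a mouse. The lists were chosen with earlier results of these data known, so this share is a description and no test. The paper had reported *Cxcl9*, *Cxcl10* and *Ifi47*, which are on the list, as high in a luminal subgroup made up mainly of pregnant double mutant cells. The GTPases *Iigp1*, *Ifi47* and *Gbp3* led, at 804, 701 and 597 CPM, and *Nlrc5*, the coactivator of class I genes and relative of *Ciita*, was at 80.8 CPM against 3.14 to 33.6 CPM in the other mice. The chemokine *Cxcl9* was at 224 CPM but was read in 8 of the 47 cells.

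The other lists did not set pBr53L apart. Interferon gamma signalling, which includes the receptor genes and *Irf1*, summed to 995 CPM in pBr53L, 572 to 978 CPM in the other luminal mice and 610 to 1003 CPM in tumors. X and Y box factors, the RFX, CREB and NF-Y subunits, summed to 199 CPM against 87.99 to 222 CPM in the other luminal mice. The processing list summed to 2581 CPM against 1838 to 3432 CPM, and its protease *Ctss*, which trims the invariant chain in antigen-presenting cells, was at 0.871 CPM. The other class II genes summed to 51.5 CPM against 28.2 to 90.2 CPM, and *March8*, a ubiquitin ligase that acts on class II among other proteins, made up 41.3 CPM of it. *H2-Oa*, a brake on H2-DM, was at 1.85 CPM in pBr53L and at 22.8 CPM in v53L.

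**Figure D5:**
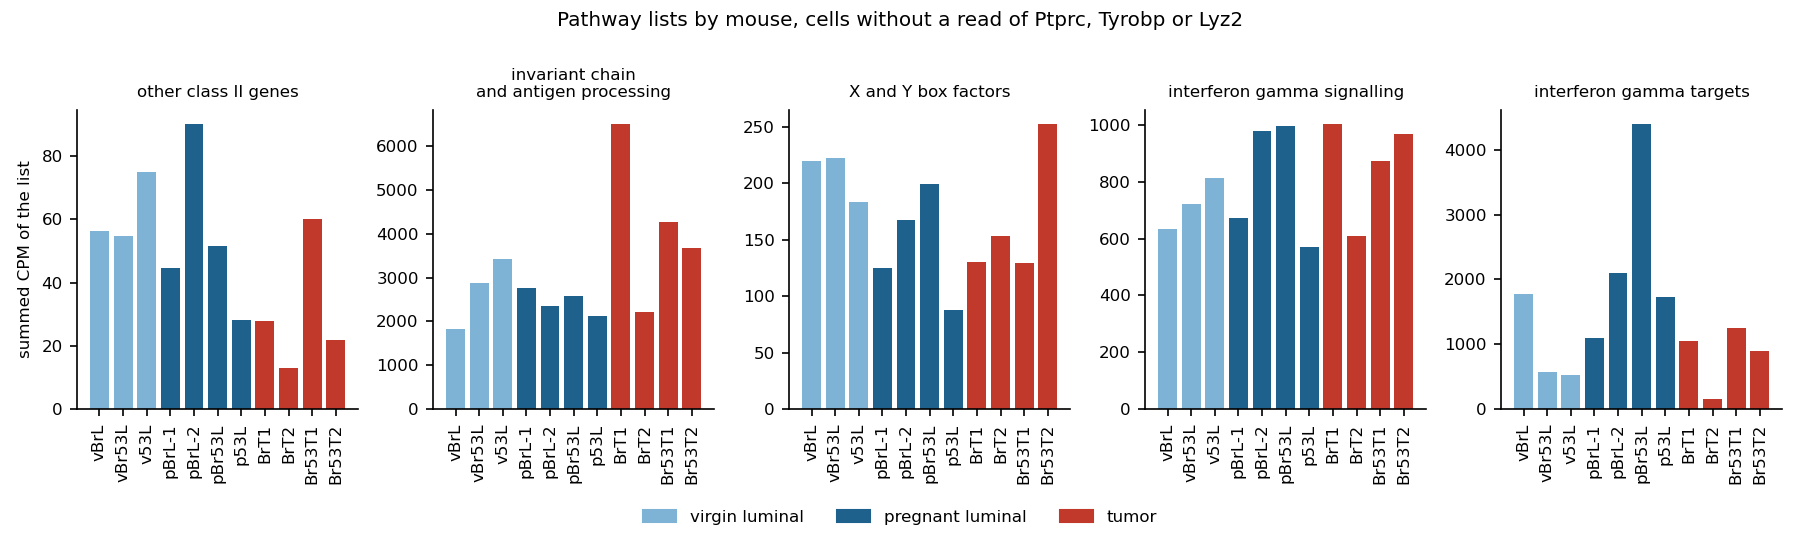
Bars give the summed CPM of each of the 5 lists by mouse (linear axes from 0, cells without a read of *Ptprc*, *Tyrobp* or *Lyz2*, 1 mouse per bar and so no error bar). In the panel of interferon gamma targets pBr53L reaches 4399 CPM and the next mouse, pBrL-2, 2100 CPM, while in the panels of the other 4 lists pBr53L lies within the range of the other mice.

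Across the pBr53L cells the class II sum had a rho of 0.51 with interferon gamma targets, 0.21 with interferon gamma signalling, 0.027 with X and Y box factors and 0.30 with the processing list. The 23 cells high in class II had a median target sum of 3394 CPM and the 23 low ones 1888 CPM. The 10 genes most alike in pattern over the 47 cells, of 8303 ranked by Spearman's rho, were *Lcp1* (0.73), *Rabgap1* (0.58), *AW112010* (0.57), *Irgm1* (0.56), *Mapre2* (0.54), *Trappc2* (0.52), *Uhmk1* (0.51), *Gbp6* (0.51), *Tcf12* (0.51) and *Iigp1* (0.50). *Irgm1*, *Gbp6* and *Iigp1* are interferon-inducible GTPases. *Lcp1*, an actin-bundling protein best known from white blood cells, was read in 40 of the 47 cells. Its level by mouse was 210 CPM in pBr53L, 102 to 156 CPM in the other luminal mice, 297 CPM in Br53T1 and 0 in BrT1.

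Over the 11 mice, with all cells, the 10 genes most alike to the class II sum, of 8724 ranked, were *Dennd1b* (0.90), *Fnip1* (0.87), *Kif13b* (0.86), *Arhgap28* (0.86), *Tax1bp1* (0.85), *Nlrc5* (0.85), *Yod1* (0.83), *Vtcn1* (0.83), *Spon1* (0.82) and *Rad23b* (0.80). With cells without an immune read the same 10 genes had values from 0.43 (*Tax1bp1*) to 0.82 (*Fnip1*), and *Nlrc5* 0.60. In the all-cell values vBrL ranked 2 of 11 by class II through the 1 cell described above, and in cells without an immune read it ranked 9. Ranked in those cells instead, the most alike genes were *Slfn2* (0.93), *Ets2* (0.90), *Tapbp* (0.88), *Fbxw11* (0.86) and *Myo6* (0.86), and the lists of 10 shared 0 genes.

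Tumors were compared with the luminal cells of *Brca1*-deficient mice by edgeR's quasi-likelihood test on reads summed per mouse (4 against 5 mice, all cells). At an adjusted p (Benjamini-Hochberg) under 0.05, 0.609% of the 12978 genes tested were called, 0.393% higher and 0.216% lower in tumors. Of the 7 members 6 passed the filter on low counts, all but *Ciita*, and no call is given for them because they were chosen on these levels. Of 42 tested genes in the 5 lists 1 was called, and 11 had an unadjusted p under 0.05, as had 1788 of all 12978 genes. The called gene was *Ctsz*, a cathepsin of lysosomes, which rose in tumors. It was at 467 (BrT1), 347 (BrT2), 531 (Br53T1) and 379 CPM (Br53T2) in tumors and at 87.4 (vBrL), 80.9 (vBr53L), 124 (pBrL-1), 111 (pBrL-2) and 151 CPM (pBr53L) in luminal mice. The arms did not overlap, and the log2 difference was 1.81 ± 0.28 (SE, adjusted p = 0.0226 by edgeR). With either pBrL mouse left out *Ctsz* was no longer called, at a log2 difference of 1.83 or 1.77 (adjusted p = 0.0676 or 0.0730 by edgeR). It was also not called with the chip as a block, at 1.64 ± 0.75 (adjusted p = 0.542 by edgeR), a fit in which 1 chip held both arms and 1 residual degree of freedom was left.

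By list, edgeR called 0 of 4 other class II genes, 1 of 7 processing genes, 0 of 7 X and Y box factors, 0 of 8 signalling genes and 0 of 16 interferon gamma targets in that comparison. DESeq2, which called 6.44% of the 12553 genes it tested, called 1, 3, 0, 0 and 1 of them. With the chip as a block, where 2.13% of genes were called, the 1 list gene called was the target *Cxcl9*, a chemokine (log2 difference -7.68 ± 1.38). The single chip that held both arms carried 1 mouse of each, Br53T2 at 0.694 CPM and pBrL-2 at 130 CPM, so that value has no replicate. Over all 9 mice the levels overlapped, at 70.3 (BrT1), 0 (BrT2) and 0 CPM (Br53T1) in the other tumors and 78.1 (vBrL), 0 (vBr53L), 0 (pBrL-1) and 201 CPM (pBr53L) in the other luminal mice, and without the block the log2 difference was -2.42 ± 2.58 (adjusted p = 0.734 by edgeR). The targets had a median log2 difference of -1.47, with 15 of 16 lower in tumors, beside a median of 0.06 over all genes tested. With 1 mouse left out the median ran from -2.12 (without Br53T1) to -0.91 (without pBr53L). *Psmb9*, a subunit of the immunoproteasome, had the smallest adjusted p of them (0.173, log2 difference -1.85 ± 0.56), with tumors at 8.62 to 51.6 CPM and the luminal mice at 44.9 to 146 CPM.

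Pregnancy was compared within the luminal cells, 4 pregnant against 3 virgin mice with genotype in the model. As in the tumor comparison all cells were used, with or without an immune read, and the CPM in this paragraph are from all cells. edgeR called 0.0146% of 13709 genes, 0 of them (0%) higher and 0.0146% lower in pregnancy. All 7 members passed the filter, and again no call is given for them. Of 41 list genes tested 0 were called by edgeR and 5 had an unadjusted p under 0.05, as had 1232 of all 13709 genes. DESeq2 called 5 list genes and 8.34% of all genes it tested, and edgeR without the filter on low counts 7 list genes and 1.99% of all. All 16 interferon gamma targets had a higher fitted level in pregnancy, with a median log2 difference of 2.39 beside 0.14 over all genes. Not every target separated the arms. *Iigp1* was at 696 CPM in vBrL, against 148 (pBrL-1), 211 (pBrL-2), 784 (pBr53L) and 464 CPM (p53L) in pregnancy. *Gbp4*, a guanylate-binding protein, was at 9.22 (pBrL-1), 3.65 (pBrL-2), 59.8 (pBr53L) and 7.53 CPM (p53L) in pregnancy and at 0.274 (vBrL), 0 (vBr53L) and 0.372 CPM (v53L) in virgins, which did not overlap (log2 difference 5.72 ± 1.94, edgeR adjusted p = 0.479). *Ifi47* was at 192, 202, 646 and 173 CPM in pBrL-1, pBrL-2, pBr53L and p53L and at 96.9, 5.72 and 20.6 CPM in vBrL, vBr53L and v53L (2.94 ± 1.01, adjusted p = 0.480). With 1 mouse left out the median ran from 1.46, without pBr53L or without vBr53L and with 12 of 16 higher, to 4.96 without vBrL. *Gbp4* and *Ifi47* passed with DESeq2 (adjusted p = 0.00155 and 0.00966) and with edgeR without the filter on low counts (0.0231 and 2.79e-05). With the chip as a block edgeR called 0.617% of all genes and 7 of the 16 targets, all higher in pregnancy, at a median of 5.01. In that fit 2 chips held both arms, that of vBr53L and pBr53L and that of v53L and p53L, and 1 residual degree of freedom was left.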

How the data were processed

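Per the labels, reads were trimmed with Trim Galore 0.4.1, aligned with STAR 2.5.3a to mm10 and counted with Subread 1.5.3, which gave the deposited table of raw read counts for 21004 genes in 477 cells. The authors inspected chambers for doublets by microscope; no molecular identifiers were used, so reads are not independent molecules. The annotation used for counting is not given in the sources used here. Members, lists, marker genes and naming rules were chosen with earlier results of these data known. Cells were assigned to mice by the mouse identifier in the labels, and no 2 cells held identical values. CPM divides a gene's reads by all reads of the cell, or of the summed cells of a mouse. Shares used cells thinned at random to 100000 reads (seed 20), with exact Clopper-Pearson intervals, and the limit for 0 cells is 3 cells of the total. Counts summed per mouse were tested with edgeR 4.0.16 (TMM factors, filterByExpr, quasi-likelihood F test, Benjamini-Hochberg over all genes); SEs are the log2 difference over the square root of F. The step was tested on simulated counts with 200 changed genes, and in both comparisons it missed most of the smaller changes set there. A count of 0 calls therefore does not show that levels were alike. DESeq2 1.42.0, other scalings, no filter, the chip as a block and leaving out each mouse were alternatives. p-values measure the spread between mice. Named genes were the members, the list genes, and the 10 genes most alike over mice (mean of at least 10 CPM) and over pBr53L cells (a read in at least 10 cells), leaving out gene models. The genes used to illustrate a list were chosen after their values were seen. Gene positions and exon lengths are from GENCODE vM21 and promoters from RefSeq. Some genes of the lists are not reported here by name.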

Additional observations from a re-analysis of the deposited data

Results flagged for a closer look

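Values in cells without an immune read were screened for a mouse far from the others (Dixon's test at 95%) among the 4 pregnant luminal, the 5 *Brca1*-deficient luminal and the 4 tumor mice. Of 38 sets of values 15 had such a mouse. The rate of about 1 in 20 that chance gives does not apply, since the members were chosen on these levels and the sets share mice, so what follows describes that choice and is no test. In 11 of the 15 the mouse was pBr53L. Among pregnant mice it stood apart for *Cd74* (454 CPM), *H2-Aa* (197), *H2-Ab1* (252), *H2-DMa* (43.05) and the sum (1011), and among *Brca1*-deficient luminal mice for the same 5 values and for *H2-Eb1* (39.1 CPM). The list of other class II genes had pBrL-2 apart at 90.2 CPM, of which *March8* made up 88.7 CPM. In tumors Br53T2 was apart for *Cd74* (38.1 CPM) and, as the sole tumor above 0, *H2-Aa* (0.178 CPM), and Br53T1 for *H2-DMb1* (83.1 CPM).

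Changes with pregnancy differed in direction between genotypes for 5 quantities, and these differences were not tested, since each rests on 1 or 2 mice. In CPM, pregnant minus virgin, *H2-DMa* was higher by 3.29 and 6.83 in the 2 *Brca1* mice and by 42.6 in the double mutant, and had a difference of -38.6 in the *Trp53* mutant. *H2-Ab1* had differences of 14.3 and -2.79 (*Brca1*), 250.3 (double mutant) and -20.8 (*Trp53*). The class II sum had differences of 28.7 and 4.77, 968.8, and -50.4. The processing list had 918.7 and 513.4, -304.3, and -1319, and interferon gamma signalling 38.6 and 342.8, 271.5, and -241.6.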

How the results depend on the processing

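With all cells and with cells without an immune read the class II sum of pBr53L was the highest of the 11 mice under the settings that follow, whereas in cells with an immune read that of vBrL was higher (16590 against 7496 CPM). In cells without an immune read (1011 CPM, next mouse 97.4) it was 966 CPM as a mean over cells (next 101), 1097 with TMM-multiplied library sizes (next 106) and 1102 without cells holding any immune list gene (next 114). With all cells (1655 CPM, next 1077) it was 2060 (next 808), 1832 and 1102 (next 114). The share of pBr53L cells with *Cd74* was 68.1% at 5 or more reads, and that with any member (89.4%) was 97.9% without thinning and 70.2% at 5 or more reads. Cells with an immune read were 35.2% of all by the whole immune marker list and 2.73% at 10 or more reads of the 3 genes, in place of 6.499%.

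Counts of calls depended on the tool and the mice. The tumor comparison called 79 genes, 129 without the filter on low counts, 808 with DESeq2, 122 (92 higher, 30 lower, against 51 and 28) with library size alone, a scaling chosen after seeing the data that moved the median of all genes from 0.06 to 0.20 (log2), and 11 to 94 with 1 mouse left out. It called 1 list gene, 5 with DESeq2, and 0 to 1 with 1 mouse left out (0 without either pBrL mouse). The pregnancy comparison called 2 genes, 366 without the filter, 1054 with DESeq2, 17 without the covariate and 0 to 41 with 1 mouse left out. It called 0 list genes, 7 without the filter and 5 with DESeq2. With the chip as a block, also added after seeing the data and with 1 residual degree of freedom in either comparison, the tumor comparison called 360 genes and 1 list gene (*Cxcl9*, not *Ctsz*), and the pregnancy comparison 96 genes and 7 list genes. The cause of these differences was not tested. Pairing by replicate number was not possible because the groups share no number other than 1, so pairing could only follow the chips, as in the chip block. Statements on *Ciita* are limited, since it had reads in 14 of 477 cells.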
